A study of Canis lupus familiaris with 15 samples.

Results

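The genes described here are 59 growth factors, receptor tyrosine kinases and insulin-like growth factor (IGF) binding proteins, chosen by symbol. They comprise 28 ligands, 25 receptors or receptor-like genes and 6 IGF-binding proteins. Of the 59, 41 were listed in at least 1 of 3 tables of differentially expressed genes, among 7699 different symbols listed in all. The remaining 18 were listed under these symbols in none of the tables and have no value here.

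RNA-Seq was performed on 15 libraries in 5 groups of 3, all from canine osteosarcoma cell lines. Extravasation-positive D17 and extravasation-positive HMPOS cells (called extravasated below) are sub-lines grown in culture from tumor cell clusters that had left the vessels of transgenic zebrafish, Tg(fli1a:EGFP), whose endothelium is fluorescent. Their controls were parental D17 and parental HMPOS cells, cultured without passage through a fish, so that passage, isolation and regrowth all separate the groups and cannot be told apart from extravasation itself. The fifth group was parental POS, the line from which the highly metastatic HMPOS was derived, and no extravasated POS group was included. The labels state no altered gene and no drug for any group. By the article's methods, the infused cells were fluorescently labelled, and the embryos were kept in N-phenylthiourea against pigmentation and anesthetized with tricaine. Dissected pieces with the extravasated cells were put in a bleaching solution. These exposures in the fish and at isolation also separate extravasated from parental cells. The labels number the libraries of a group 1 to 3. The article calls the isolated clusters biological replicates, but the labels tie no library to a cluster and do not say whether the parental libraries came from separate cultures.

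Each table gives 1 value per gene and group, in FPKM (sequenced fragments scaled to transcript length and to the number of mapped fragments). The 3 libraries of a group are merged in that value. The spread between libraries and the read depth are therefore unknown, no error or test was computed from the group values, the authors' own statistics were not used, and the values below are descriptions of the group values. Every listed gene carries the authors' own mark of significance, and genes without that mark are not listed. In the D17 and HMPOS tables one group is named meta and the other norm. Norm was read as parental because POS, which has parental libraries alone, also carries it, and meta was read as extravasated. The HMPOS group named norm is also the one set against POS, as its values show. For the 14 members listed in both HMPOS tables these values differ by at most 0.119%. No such link exists for D17. This reading is not settled, the opposite one is not set aside, and every direction between extravasated and parental cells given below depends on it. The article counts more genes downregulated than upregulated in the extravasated cells of both lines. Its account of the directions was not used to choose a reading. The tables' own ratio has the second group over the first, the inverse of the ratio used here, so a direction read from its sign alone is the opposite one. Were the names exchanged, the 17 higher and 4 lower members in D17 would be 17 lower and 4 higher, the 12 higher and 4 lower in HMPOS would be 12 lower and 4 higher, and the shares of all listed genes that were higher would be 45.8% in D17 and 33.0% in HMPOS in place of 54.2% and 67.0%. With the HMPOS names exchanged, the group set against POS, called parental HMPOS throughout, would be the extravasated one. Shares past 2-fold higher and lower would change places, and ranks from the top would be ranks from the bottom. In bulk RNA, fewer cells of a type and less RNA per cell cannot be told apart.

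Receptor tyrosine kinases are cell surface receptors that dimerize when a growth factor binds, phosphorylate each other's tails and recruit adaptor proteins that start the RAS-ERK and PI3K-AKT cascades. The EGF and neuregulin ligands act through EGFR and its relatives ERBB2, ERBB3 and ERBB4, while the PDGF, FGF, VEGF, HGF, KIT ligand and GAS6 ligands each have receptor families of their own. IGF-binding proteins hold IGF1 and IGF2 outside the cell and change how much of them reaches IGF1R. In bone, PDGF, FGF and IGF signals act on osteoblasts and their precursors, and several of these receptors are studied as drug targets in osteosarcoma.

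The lines were first set against markers of their labelled type. In D17, 6 of 12 osteoblast lineage markers were listed. Of these, 5 were higher in extravasated cells, 83.3% against 54.2% of all listed genes. The summed level of the 6 was 2242 FPKM in extravasated cells against 931.3 FPKM in parental cells, with COL1A2 the most abundant. In HMPOS, 5 of the 12 were listed, 4 of them higher (COL1A1 turns after centring), with summed levels of 3125 and 1923 FPKM. Most of that sum was SPARC, at 2897 and 1777 FPKM, while IBSP was lower in extravasated cells, at 0.427 and 2.05 FPKM. No leukocyte marker of 10 was listed in any table, and of 10 endothelial markers ERG alone was listed, in D17, at 10.4 FPKM in extravasated cells against 6.13 FPKM in parental cells. A marker that is not listed has no value here and was not read as absent.

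In D17, with meta read as extravasated, most of the listed growth factor and receptor genes were higher in extravasated than in parental cells. The table lists 21 of the 59, of which 17 were higher and 4 lower (15 and 6 after centring on the median ratio of all listed genes), while 54.2% of all 4412 listed genes were higher. More than 2-fold differences were seen for 9 genes in the upward direction, 42.9% of the 21, against 18.3% of all listed genes. GAS6, PDGFRL, PDGFD, IGFBP4 and ERBB3 led these, and VEGFC, IGFBP7, FGF2 and VEGFD followed. More than 2-fold lower were EREG and NRG1, 9.52% of the 21 against a background of 8.50%. The median log2 ratio (extravasated over parental) of the 21 genes was 0.70, and that of all listed genes was 0.39. After centring on the latter, 5 genes were more than 2-fold higher, 23.8% against 10.8% of all listed genes, and 3 more than 2-fold lower, 14.3% against 23.0%.

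**Figure D1:**
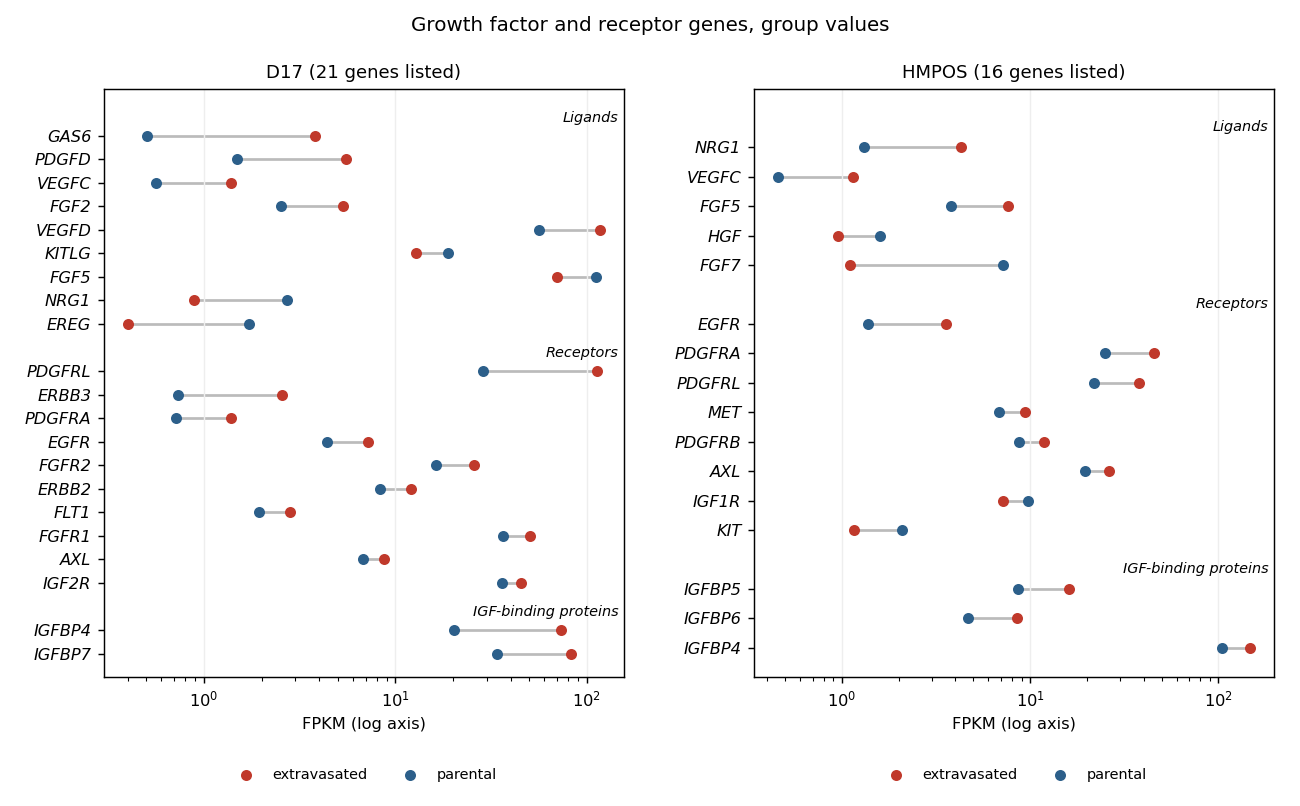
FPKM (log axis) of each listed gene in extravasated (red) and parental (blue) cells of D17 (left) and HMPOS (right), grouped as ligands, receptors and IGF-binding proteins; each point is 1 group value that merges 3 libraries, and no error can be drawn. In D17 the red point lies to the right for all 10 receptors, of which AXL and IGF2R change side after centring, while the ligands EREG, NRG1, FGF5 and KITLG have it on the left.

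Among the D17 ligands the direction was mixed, with 5 of 9 listed genes higher and 4 lower, 55.6% higher against 54.2% of all listed genes. After centring FGF2 (log2 ratio 0.70) and VEGFD (0.68) were within 2-fold, as was VEGFC, and FGF5 was more than 2-fold lower (-1.05). GAS6, a vitamin K-dependent ligand of AXL, TYRO3 and MERTK, was at 3.78 FPKM in extravasated cells against 0.503 FPKM in parental cells. This 7.52-fold difference was the widest among the members in D17, and its log2 ratio of 2.91 ranked 87 from the top of the 4412 listed genes. It rests on a low parental value, and with 1 FPKM added to each group value the log2 ratio was 1.67. PDGFD, a ligand that is secreted in latent form and acts mainly through PDGFRB, was at 5.51 FPKM in extravasated cells against 1.49 FPKM in parental cells, 3.71-fold higher. VEGFC, which acts on FLT4 and drives growth of lymphatic vessels, was at 1.39 and 0.561 FPKM. FGF2, a broad mitogen of mesenchymal cells, was at 5.34 FPKM in extravasated cells against 2.52 FPKM in parental cells, 2.12-fold higher. These ligands were present at low to moderate levels in both groups, below most of the listed receptors of the line.

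VEGFD, the other lymphatic growth factor of the family, had the highest level of the members in extravasated D17 cells, at 117.5 FPKM in extravasated cells against 56.2 FPKM in parental cells. In the table it shares its start and end on chromosome X (chrX:11590057-11733484) with PIR, an iron-binding nuclear protein, which was at 108.9 FPKM in extravasated cells against 242.9 FPKM in parental cells. The values of these overlapping genes differed in opposite directions, and how reads were divided between them was not tested, so the VEGFD difference is uncertain.

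Of the 4 D17 ligands that were lower in extravasated cells, EREG and NRG1 belong to the EGF family. EREG (epiregulin), which binds EGFR and ERBB4, was at 0.399 FPKM in extravasated cells against 1.73 FPKM in parental cells, 4.32-fold lower and rank 22 from the bottom of the listed genes. NRG1 (neuregulin 1), which binds ERBB3 and ERBB4, was at 0.883 FPKM in extravasated cells against 2.72 FPKM in parental cells, 3.08-fold lower. Both are low, and with 1 FPKM added to each group value their log2 ratios became -0.96 for EREG and -0.98 for NRG1, within 2-fold. FGF5, a secreted FGF, stayed abundant, at 70.2 FPKM in extravasated cells against 110.9 FPKM in parental cells. KITLG, the ligand of KIT, was at 12.8 and 18.9 FPKM.

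The 10 receptor genes listed for D17 were each higher in extravasated cells by uncentred values, while after centring AXL (log2 ratio -0.0087) and IGF2R (-0.058) lay just below the median of all listed genes. Of all listed genes, 54.2% were higher before centring. Of the 10, PDGFRL and ERBB3 were past 2-fold, 20.0% against 18.3% of all listed genes. PDGFRL, a secreted PDGF receptor-like protein without a kinase domain, was at 113.1 FPKM in extravasated cells against 28.5 FPKM in parental cells, a 3.97-fold difference. ERBB3, the kinase-impaired neuregulin receptor that signals through its partner ERBB2, was at 2.56 FPKM in extravasated cells against 0.732 FPKM in parental cells, a 3.50-fold difference that was near 2-fold with 1 FPKM added (log2 ratio 1.04). Its partner ERBB2 was at 12.0 and 8.31 FPKM. NRG1 thus stood above ERBB3 in parental D17 cells and below it in extravasated D17 cells, on the FPKM scale.

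Since ERBB3 is prominent in epithelia, epithelial markers are given beside it. Of 9 such markers, 3 were listed in D17 and all 3 were higher in extravasated cells, where 54.2% of all listed genes were higher. Their summed level was 8.36 FPKM in extravasated cells against 4.20 FPKM in parental cells, with ESRP1 the most abundant, at 5.17 and 3.69 FPKM. CDH1 was at 1.47 and 0.0783 FPKM, EPCAM was at 1.72 and 0.431 FPKM, and no listed marker was at 0. The CDH1 and EPCAM differences rest on low parental values. The part of these markers in the ERBB3 difference was not tested.

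The other D17 receptors differed by less than 2-fold. PDGFRA, a receptor for several PDGF dimers, was closest to the threshold, at 1.38 FPKM in extravasated cells against 0.718 FPKM in parental cells, 1.93-fold higher. EGFR was at 7.15 and 4.40 FPKM, and the FGF receptors FGFR2 and FGFR1 were at 25.6 and 16.3 FPKM and at 50.6 and 36.7 FPKM. FLT1, a VEGF receptor better known from endothelium, was at 2.80 FPKM in extravasated cells against 1.95 FPKM in parental cells, and the endothelial marker ERG differed in the same direction, as given above, with its part in the FLT1 difference not tested. AXL, the one GAS6 receptor listed in D17, was at 8.76 and 6.75 FPKM, so that GAS6 differed more widely than this receptor. IGF2R, which is not a kinase and carries IGF2 and mannose 6-phosphate-tagged enzymes to lysosomes, was at 45.3 and 36.1 FPKM.

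Both IGF-binding proteins listed for D17 were past 2-fold and abundant, though IGFBP7 was within 2-fold after centring (log2 ratio 0.91). Of all listed genes, 18.3% were more than 2-fold higher before centring and 10.8% after it. IGFBP4, which mostly restrains IGF action until it is cleaved by the protease PAPPA, was at 73.1 FPKM in extravasated cells against 20.3 FPKM in parental cells, a 3.60-fold difference. PAPPA itself was at 1.96 and 1.14 FPKM. IGFBP7, a low-affinity IGF binder of the extracellular matrix, was at 82.9 FPKM in extravasated cells against 33.8 FPKM in parental cells. It shares its listed start and end with POLR2B, an RNA polymerase subunit, which was at 27.96 and 36.4 FPKM. The directions of this pair were opposite too, and how reads were divided between them was not tested, so the IGFBP7 difference is uncertain.

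In HMPOS, fewer of these genes were listed, and under the same reading of the names most of them were higher in extravasated cells before centring. The table lists 16 of the 59, with 12 higher and 4 lower in extravasated cells, 75.0% higher against 67.0% of all 1189 listed genes. More than 2-fold higher were NRG1, EGFR, VEGFC and FGF5, 25.0% of the 16 against 20.5% of all listed genes. FGF7 alone was more than 2-fold lower, 6.25% against 4.79%, while after centring HGF (log2 ratio -1.33), KIT (-1.43) and IGF1R (-1.01) were so as well. The median log2 ratio was 0.65 for the 16 genes and 0.58 for all listed genes, and after centring on the latter 8 genes were higher and 8 lower, with NRG1 the one gene left more than 2-fold higher (6.25% against 6.06% of all listed genes) and 4 more than 2-fold lower (25.0% against 30.4%).

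**Figure D2:**
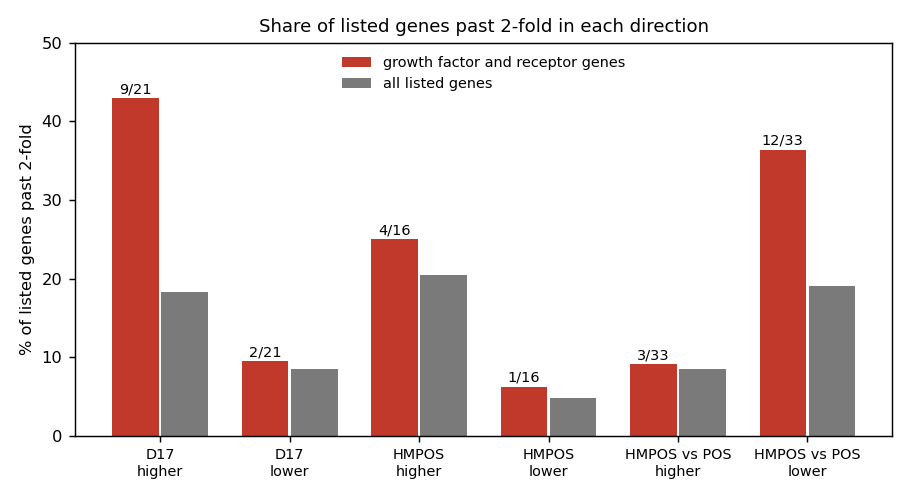
Percentage of listed genes (vertical axis) that differed by more than 2-fold in each direction, for the growth factor and receptor genes (red, with their counts) and for all listed genes (grey); higher and lower refer to extravasated against parental cells for D17 and HMPOS, and to HMPOS against POS in the last pairs. The red bar stands clearly above the grey one for D17 higher (9 of 21) and for HMPOS lower than POS (12 of 33), and near it elsewhere.

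The HMPOS ligands covered both ends of the range. NRG1 was at 4.30 FPKM in extravasated cells against 1.31 FPKM in parental cells, 3.28-fold higher and rank 62 from the top of the 1189 listed genes. VEGFC was at 1.14 FPKM in extravasated cells against 0.456 FPKM in parental cells, 2.51-fold higher. FGF5 was at 7.63 and 3.81 FPKM, a 2.00-fold difference that lies just past the threshold. With 1 FPKM added to each group value, NRG1 alone of the 4 higher genes stayed past 2-fold.

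FGF7 (keratinocyte growth factor), which mesenchymal cells secrete and which acts on the epithelial form of FGFR2, was at 1.11 FPKM in extravasated cells against 7.22 FPKM in parental cells. Its log2 ratio of -2.70 was the widest difference of the HMPOS members, at rank 10 from the bottom of the listed genes. HGF (hepatocyte growth factor), the ligand of MET, was at 0.9503 FPKM in extravasated cells against 1.59 FPKM in parental cells. Its receptor MET was at 9.44 and 6.83 FPKM, higher in extravasated cells by 1.38-fold before centring and below the median of all listed genes after it.

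Of the 8 receptor genes listed for HMPOS, 6 were higher in extravasated cells and 2 lower, 75.0% higher against 67.0% of all listed genes, but AXL, MET and PDGFRB turned to the lower side after centring. EGFR was the one past 2-fold, at 3.59 FPKM in extravasated cells against 1.38 FPKM in parental cells, a 2.61-fold difference. It was within 2-fold after centring (log2 ratio 0.80) and with 1 FPKM added (0.95). Of the 9 epithelial markers CDH1 alone was listed in HMPOS, at 3.04 and 1.49 FPKM, and its part in the EGFR and NRG1 differences was not tested. PDGFRA, at 45.5 and 25.0 FPKM, and PDGFRL, at 37.8 and 21.9 FPKM, were higher by 1.82-fold and 1.73-fold. PDGFRB was at 11.8 FPKM in extravasated cells against 8.70 FPKM in parental cells, and AXL was at 26.4 and 19.5 FPKM. KIT, the stem cell factor receptor, was at 1.16 FPKM in extravasated cells against 2.08 FPKM in parental cells, 1.80-fold lower. IGF1R, the main signaling receptor for both IGFs, was at 7.22 and 9.73 FPKM, 1.35-fold lower.

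The 3 IGF-binding proteins listed for HMPOS were higher by less than 2-fold, where 67.0% of all listed genes were higher. IGFBP4 lay below the median of all listed genes after centring (log2 ratio -0.076). IGFBP5, a matrix-bound binder that is common in bone, was at 16.04 FPKM in extravasated cells against 8.61 FPKM in parental cells. IGFBP6, which prefers IGF2, was at 8.49 and 4.69 FPKM. IGFBP4 was at 147.7 and 103.9 FPKM and was the most abundant member of the HMPOS table in both groups.

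The D17 and HMPOS tables share no libraries, and 8 of the genes were listed in both. EGFR, PDGFRA, PDGFRL, AXL, VEGFC and IGFBP4 were higher in extravasated than in parental cells of D17 as well as HMPOS. Of these, AXL in both lines and IGFBP4 in HMPOS turned to the lower side after centring. NRG1 and FGF5 went opposite ways, lower in D17 and higher in HMPOS. The same direction was thus seen for 75.0% of the 8 genes and for 87.1% of the 614 genes listed in both tables. Were the names exchanged in 1 of the lines alone, NRG1 and FGF5 would share a direction, the other 6 genes would be opposite, and the shares would be 25.0% and 12.9%. The closest values between lines were those of VEGFC, with log2 ratios of 1.31 in D17 and 1.33 in HMPOS, which would lie 2.63 apart after such an exchange. IGFBP4 and PDGFRL had wider differences in D17, with log2 ratios of 1.85 and 1.99 there against 0.51 and 0.79 in HMPOS. EGFR had the wider difference in HMPOS, with 1.38 there against 0.70 in D17, as did FGF5, with 1.00 against -0.66. Whether any of these differences between the lines exceeds the spread between libraries was not tested, since no value per library was analysed here.

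**Figure D3:**
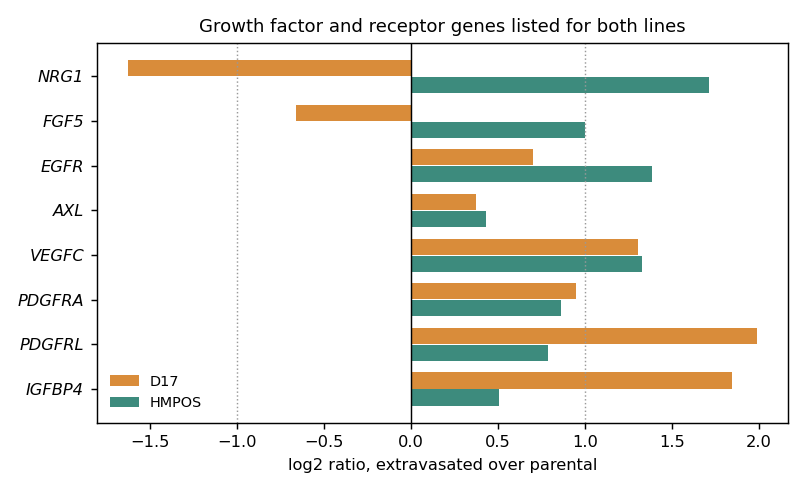
Log2 ratio of extravasated over parental cells (horizontal axis) for the 8 genes listed in both the D17 (orange) and HMPOS (green) tables, from single group values without error; dotted lines mark 2-fold. NRG1 and FGF5 have bars on opposite sides of 0, and the other 6 genes have both bars on the right, though after centring AXL turns in both lines and IGFBP4 in HMPOS.

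Under the reading used, NRG1 showed the widest gap between the lines, with log2 ratios of -1.62 in D17 and 1.72 in HMPOS, while with the names exchanged in 1 line alone it would have the narrowest (0.092) and PDGFRL the widest (2.78). Of 92 genes past 2-fold in both lines, 11 differed in direction and 4 of these were lower in D17 and higher in HMPOS, NRG1 among them, while after an exchange in 1 line 81 would differ in direction and NRG1 would not. It was past 2-fold in both lines together with VEGFC, and no other member was. VEGFC was within 2-fold in both lines after centring (log2 ratios 0.92 in D17 and 0.74 in HMPOS) and with 1 FPKM added (0.61 and 0.56), and NRG1 was within it in D17 with 1 FPKM added, as given above. NRG1 (ENSCAFG00000006371) is listed on canine chromosome 16, at chr16:31706850-31918469 of CanFam3.1, and no other listed gene overlaps this span. The tables do not say which of its exons or isoforms were covered. Within 2 Mb on either side, 6 other genes were listed in D17, with 5 lower in extravasated cells, where 45.8% of all listed genes were lower. The 1 higher gene, RNF122, at 5.69 and 2.19 FPKM, was the one past 2-fold before centring. The nearest were FUT10, at 3.44 FPKM in extravasated cells against 5.69 FPKM in parental cells, and MAK16, at 81.8 and 126.1 FPKM. After centring RNF122 was within 2-fold, while FUT10 and MAK16 were more than 2-fold lower. In HMPOS the same window held 1 other listed gene, PURG, at 1.99 FPKM in extravasated cells against 3.02 FPKM in parental cells, so it was lower where NRG1 was higher. Between parental HMPOS and POS, where NRG1 was lower in HMPOS, the window held 6 other listed genes. Of these, 5 were lower in HMPOS and 1 higher, where 52.3% of all listed genes were lower.

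Positions were compared for the other members as well. On chromosome 13, PDGFRA (chr13:46729689-46776044), KIT (chr13:47107801-47192057) and KDR (chr13:47438397-47643635) lie next to each other, with 331.8 kb between the spans of PDGFRA and KIT and 246.3 kb between KIT and KDR. In HMPOS the neighbours PDGFRA and KIT differed in opposite directions, as given above. On chromosome 37, IGFBP2 and IGFBP5 are 10.5 kb apart, and parental HMPOS and POS cells differed in opposite directions for this pair.

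Parental HMPOS cells were next set against parental POS cells, which shows how the levels in the highly metastatic sub-line differ from those in its line of origin. Most of the listed growth factor and receptor genes were lower in HMPOS than in POS. The table lists 33 of the 59, with 9 higher and 24 lower in HMPOS, 27.3% higher against 47.7% of all 5746 listed genes. In HMPOS 12 were more than 2-fold lower, 36.4% against a background of 19.1%, and FGF7, HGF and IGFBP2 were more than 2-fold higher, 9.09% against 8.49%. The median log2 ratio of HMPOS over POS was -0.66 for the 33 genes and -0.31 for all listed genes. After centring, 10 were more than 2-fold lower, 30.3% against 13.2% of all listed genes, 6 were more than 2-fold higher, 18.2% against 17.5%, and PDGFRB changed side.

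**Figure D4:**
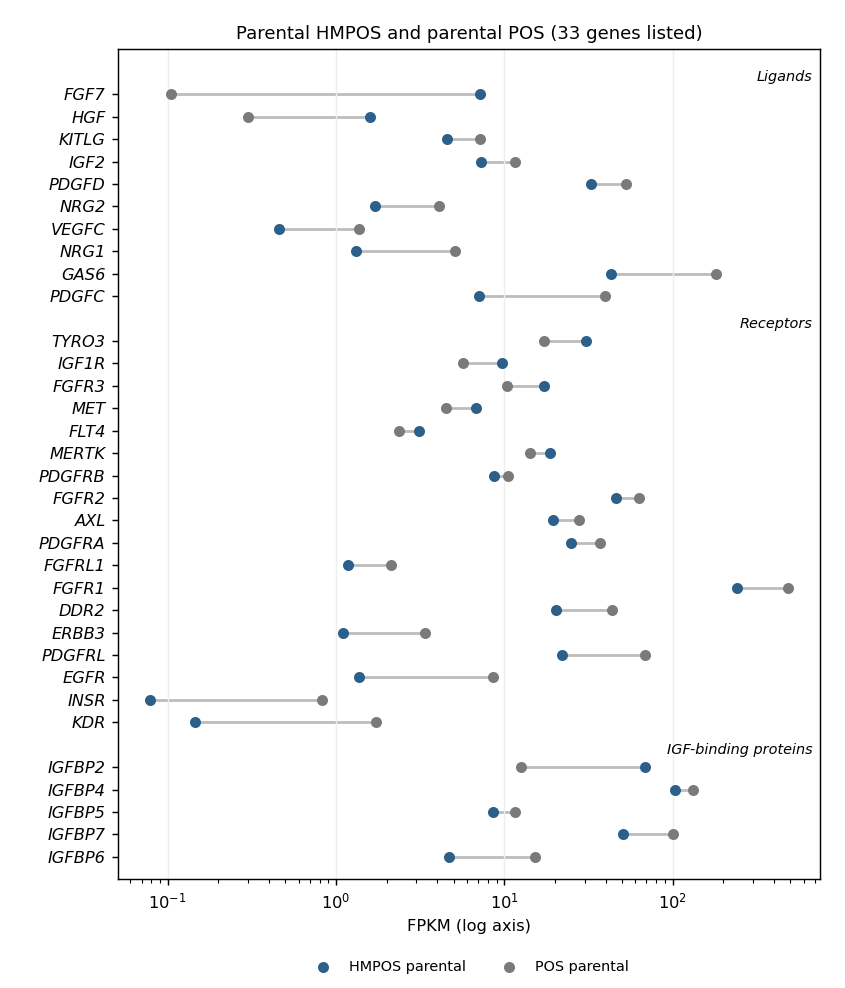
FPKM (log axis) of the 33 listed genes in parental HMPOS (blue) and parental POS (grey) cells, grouped as ligands, receptors and IGF-binding proteins; each point is 1 group value that merges 3 libraries. FGF7 has the widest gap, with HMPOS on the right, while KDR, INSR and EGFR have the widest gaps with HMPOS on the left.

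Of the 10 ligands in this table, 8 were lower in HMPOS and 5 more than 2-fold lower, where 52.3% and 19.1% of all listed genes were. PDGFC, which acts through PDGFRA, was at 7.11 FPKM in HMPOS against 39.7 FPKM in POS, 5.58-fold lower. GAS6 was at 42.8 and 181.1 FPKM, NRG1 was at 1.31 and 5.12 FPKM, and its relative NRG2 was at 1.71 and 4.10 FPKM. VEGFC was at 0.456 FPKM in HMPOS against 1.37 FPKM in POS. PDGFD, at 32.9 and 53.1 FPKM, IGF2 and KITLG were lower by less than 2-fold. The exceptions were FGF7, at 7.21 FPKM in HMPOS against 0.104 FPKM in POS, and HGF, at 1.59 and 0.301 FPKM. The 69.1-fold difference of FGF7 rests on a POS value near the bottom of the scale, and with 1 FPKM added to each value its log2 ratio was 2.89 in place of 6.11. That of HGF was then 0.99, and those of VEGFC (-0.71) and NRG2 (-0.91) were within 2-fold as well. NRG2 was also within 2-fold after centring (-0.96).

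Of the 18 receptors, 12 were lower in HMPOS, 66.7% against 52.3% of all listed genes, and 6 were more than 2-fold lower, 33.3% against 19.1%. EGFR was at 1.38 FPKM in HMPOS against 8.57 FPKM in POS, 6.23-fold lower. KDR, a VEGF receptor, was at 0.146 and 1.73 FPKM, and INSR, the insulin receptor, was at 0.0787 and 0.824 FPKM, both differences resting on values close to 0. With 1 FPKM added the log2 ratio of INSR was -0.76, within 2-fold, that of KDR was -1.25 in place of -3.57, and that of EGFR was -2.01 in place of -2.64. KDR also shares its listed span with SRD5A3, a steroid reductase family member, at 41.2 FPKM in HMPOS against 24.3 FPKM in POS. This pair differed in opposite directions, and how reads were divided between them was not tested, so the KDR difference is uncertain. ERBB3 was at 1.11 and 3.37 FPKM, PDGFRL at 21.9 and 68.2 FPKM, and the collagen receptor DDR2, within 2-fold after centring (-0.80), at 20.3 and 43.7 FPKM. FGFR1, the most abundant member in both groups, was at 242.1 FPKM in HMPOS against 483.7 FPKM in POS, just inside 2-fold. It shares its span with LETM2, at 32.6 and 69.95 FPKM. PDGFRA, at 25.0 and 36.9 FPKM, PDGFRB, FGFR2, AXL and FGFRL1 were lower by less than 2-fold, of which PDGFRB turned to the higher side after centring.

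Beside ERBB3, the epithelial marker list had 1 of 9 genes listed in this table, CDH1, at 1.49 FPKM in HMPOS against 4.30 FPKM in POS, with its part in the ERBB3 difference not tested. Osteoblast lineage markers differed as well. Of 12, 8 were listed and 6 of these were lower in HMPOS, where 52.3% of all listed genes were lower. The summed levels of the 8 were 2123 FPKM in HMPOS against 5606 FPKM in POS, with SPARC the most abundant. BGLAP, the bone protein osteocalcin, was at 27.3 and 676.3 FPKM. The part of this difference in the growth factor genes was not tested.

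The 6 receptors that were higher in HMPOS than in POS were TYRO3, IGF1R, FGFR3, MET, FLT4 and MERTK, each within 2-fold, though TYRO3, IGF1R and FGFR3 passed it after centring. TYRO3 was at 30.7 FPKM in HMPOS against 17.3 FPKM in POS, and MERTK was at 18.6 and 14.2 FPKM. The third receptor of their ligand GAS6, AXL, was at 19.5 and 27.8 FPKM. So GAS6 and AXL were lower in HMPOS, and TYRO3 and MERTK higher. Of the IGF-binding proteins, IGFBP2 was at 68.9 FPKM in HMPOS against 12.6 FPKM in POS, 5.48-fold higher, and IGFBP6 was at 4.69 and 15.3 FPKM, 3.27-fold lower. IGFBP7, at 50.8 and 100.5 FPKM, IGFBP4, at 103.8 and 132.5 FPKM, and IGFBP5 were lower within 2-fold. The IGFBP7 difference is uncertain here as well, since POLR2B on the same span was at 73.1 FPKM in HMPOS against 53.3 FPKM in POS.

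Parental HMPOS libraries enter both HMPOS tables, so the comparisons are not independent and only their values are given side by side. For the 14 genes listed in both, the parental HMPOS value differed between the tables by at most 0.119%. NRG1 was at 5.12 FPKM in POS, 1.31 FPKM in parental HMPOS and 4.30 FPKM in extravasated HMPOS cells. EGFR was at 8.57, 1.38 and 3.59 FPKM in the same order, VEGFC at 1.37, 0.456 and 1.14 FPKM, and IGFBP6 at 15.3, 4.69 and 8.49 FPKM. For these genes the group read as parental HMPOS was the lowest of the 3. FGF7 was at 0.104 FPKM in POS, 7.22 FPKM in parental HMPOS and 1.11 FPKM in extravasated HMPOS cells, and HGF was at 0.301, 1.59 and 0.9503 FPKM, with parental HMPOS the highest. MET was ordered differently, at 4.52, 6.83 and 9.44 FPKM. Since the parental HMPOS value enters both differences, an order with it at either end is favoured in advance. The share of all genes with such an order was not computed, so nothing is read from it here.

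**Figure D5:**
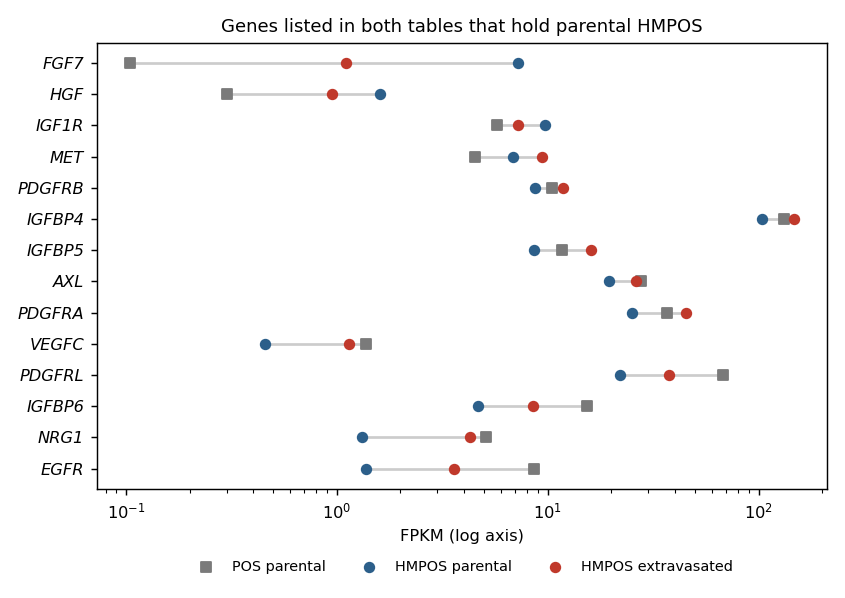
FPKM (log axis) in parental POS (grey squares), parental HMPOS (blue) and extravasated HMPOS (red) cells for the 14 genes listed in both tables that include parental HMPOS; each point is 1 group value without error. The group read as parental HMPOS is the leftmost point for 10 genes and the rightmost for FGF7, HGF and IGF1R. Such an order is favoured because its value enters both differences, and the share over all genes was not computed.

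The surrounding pathway was described with lists of genes outside the 59. Other growth factors were listed for 11 of 38 genes in D17, with 10 higher and 1 lower in extravasated cells, 90.9% higher against 54.2% of all listed genes, and a median log2 ratio of 1.01 against 0.39. IL34, a second ligand of the macrophage receptor CSF1R, was at 85.8 FPKM in extravasated D17 cells against 21.9 FPKM in parental cells. FGF10, a relative of FGF7, was at 24.9 and 8.84 FPKM, and CSF1 was at 12.8 and 5.73 FPKM. The gene lower was BDNF, a neurotrophin, at 1.46 and 3.19 FPKM. In HMPOS, 4 of the 38 were listed, 75.0% higher against 67.0%, and PTN (pleiotrophin), a heparin-binding factor of bone and brain, was at 357.8 FPKM in extravasated cells against 76.8 FPKM in parental cells. PROS1, a relative of GAS6, was at 1.03 and 0.376 FPKM, and ANGPT1, the TEK ligand, was at 6.81 and 15.6 FPKM. In the comparison of the parental lines PTN was at 76.7 FPKM in HMPOS against 2047 FPKM in POS.

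Other receptor tyrosine kinases were listed for 4 of 21 genes in D17, 3 higher and 1 lower, and for 2 of 21 in HMPOS, both higher. The shares higher were 75.0% against 54.2% of all listed genes in D17 and 2 of 2 against 67.0% in HMPOS. None of these 6 differences passed 2-fold before centring, and LMTK2 did so after it (log2 ratio -1.14). PTK7, a kinase-dead receptor of planar cell polarity, was at 47.1 FPKM in extravasated D17 cells against 25.8 FPKM in parental cells, FLT3 was at 7.91 and 4.96 FPKM, and LMTK2 was at 1.39 and 2.36 FPKM. RET was at 1.84 FPKM in extravasated HMPOS cells against 0.942 FPKM in parental cells, and ROR1 was at 4.54 and 2.46 FPKM. In HMPOS against POS, 5 of the 21 were listed and all 5 were lower in HMPOS, where 47.7% of all listed genes were higher.

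Coreceptors were listed for 6 of 22 genes in D17, 83.3% of them higher against 54.2% of all listed genes, and for 4 of 22 in HMPOS. The neuropilins, which bind VEGF and semaphorin ligands, went opposite ways in D17. NRP2 was at 82.1 FPKM in extravasated cells against 21.6 FPKM in parental cells, while NRP1 was at 72.4 and 130.8 FPKM. SDC4, a heparan sulfate coreceptor of FGFs, was at 43.2 and 26.7 FPKM in D17. In HMPOS all 4 listed genes were higher, against 67.0% of all listed genes, with NRP2 and SDC3 on the lower side after centring. GPC3, a glypican, was at 9.20 FPKM in extravasated cells against 1.90 FPKM in parental cells. GFRA3, a coreceptor of RET, was at 14.9 and 9.15 FPKM, and SDC3 was at 3.27 and 2.22 FPKM.

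Genes that act inside the cell were described in the same way. Of 38 adaptors and scaffolds 10 were listed in D17, with 7 higher and 3 lower in extravasated cells, 70.0% higher against 54.2% of all listed genes. GAB1, a docking protein for PI3K and SHP2, was at 14.6 FPKM in extravasated cells against 6.75 FPKM in parental cells. FRS2, the main docking protein of FGF receptors, was at 71.3 and 40.1 FPKM, and DOK7 was at 0.817 and 1.85 FPKM. In HMPOS 1 of the 38 was listed, PLCG2, at 7.03 and 4.15 FPKM. Of 28 genes of the PI3K and AKT arm, 10 were listed in D17, 7 higher and 3 lower (6 and 4 after centring), again 70.0% higher against 54.2%. None was past 2-fold before centring, and MTOR, at 8.97 and 13.8 FPKM, was more than 2-fold lower after it. The widest ratios before centring were those of the regulatory subunits PIK3R3, at 27.8 and 17.3 FPKM, and PIK3R1, at 6.64 and 4.19 FPKM, and of the AKT-controlled transcription factor FOXO4, at 2.15 and 1.38 FPKM. In HMPOS 4 were listed, 1 higher and 3 lower, 25.0% higher against 67.0%. Past 2-fold before centring were INPP4B (lower) and PIK3R5 (higher), each below 1 FPKM in both groups. After centring the 3 lower genes were all more than 2-fold lower, 75.0% against 30.4% of all listed genes. PIK3R3 was there lower in extravasated cells, at 26.6 and 36.3 FPKM, as was the AKT phosphatase PHLPP1, at 7.21 and 10.1 FPKM.

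Negative regulators of the receptors were listed for 13 of 25 genes in D17, with 9 higher and 4 lower (8 and 5 after centring), 69.2% higher against 54.2% of all listed genes. LRIG3 was at 15.6 FPKM in extravasated D17 cells against 6.17 FPKM in parental cells, the phosphatase PTPRG at 2.58 and 1.11 FPKM, and LRIG1, which promotes degradation of EGFR family receptors, at 13.5 and 7.05 FPKM. After centring LRIG3 (log2 ratio 0.95) and PTPRG (0.83) were within 2-fold, and the receptor ubiquitin ligase CBL (-1.10), at 3.48 and 5.73 FPKM, and UBASH3B (-1.20), at 1.61 and 2.84 FPKM, were more than 2-fold lower. In HMPOS 3 were listed and all 3 were higher, against 67.0% of all listed genes, with CBLB on the lower side after centring. ERRFI1 (MIG6), an inhibitor of the EGFR kinase, was at 46.4 FPKM in extravasated HMPOS cells against 23.8 FPKM in parental cells, and at 24.1 and 31.8 FPKM in D17, so its direction differed between the lines as that of NRG1 did. The ubiquitin ligases CBLC and CBLB were at 1.74 and 0.897 FPKM and at 7.82 and 5.52 FPKM in HMPOS. Against POS, 14 of the 25 were listed, 10 of them lower in HMPOS, where 47.7% of all listed genes were higher.

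Of 12 further genes of the IGF axis, 4 were listed in D17, 75.0% of them higher against 54.2% of all listed genes, 3 in HMPOS, 66.7% against 67.0%, and 5 in HMPOS against POS, 40.0% against 47.7%. HTRA1, a secreted protease that cleaves IGF-binding proteins, was at 512.0 FPKM in extravasated D17 cells against 192.2 FPKM in parental cells and at 566.3 and 370.9 FPKM in HMPOS. The other listed genes past 2-fold were RNA-binding proteins named for binding IGF2 mRNA rather than IGF itself. IGF2BP1 was at 20.3 and 43.1 FPKM in D17. IGF2BP3 was at 18.1 FPKM in extravasated D17 cells against 9.45 FPKM in parental cells, within 2-fold, and at 1.38 and 3.82 FPKM in HMPOS, where it was lower. STC2, which inhibits PAPPA, was at 10.6 and 6.81 FPKM in HMPOS.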

How the data were processed

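RNA-Seq of 15 libraries in 5 groups was analysed from 3 tables. The authors deposited group values in FPKM, 1 per group and gene. The processing notes name Trimmomatic 0.38, TopHat2, Cufflinks, Cuffdiff and the build CanFam3.1, the tables have Cuffdiff's columns, and the article's methods name STAR, voom and limma instead. All genes in the tables are marked significant by the authors. Columns with the authors' fold change (second group over first), statistic, p-value and q-value were not used, and 0 columns of single samples were left unused. Positions are as the tables give them, and whether starts count from 0 is not stated.

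Members were matched by symbol. STS, which encodes steroid sulfatase, was left out of the list of negative regulators after the data were seen. Members and lists were chosen with earlier results of these data known. Ratios were computed from the group values without a pseudocount. Genes at 0 in one group counted as past 2-fold. With 1 merged value per group, no test, interval or detection limit was computed and depth is unknown. By rule, values were given for members at 1 FPKM or more in a group and past 2-fold between extravasated and parental cells, members listed in both lines, NRG1 and members past 2-fold between HMPOS and POS. From each other list up to 3 genes per line with the widest ratios and at least 1 FPKM in a group were named. Values of further genes were added after they were seen. The code that counts genes past 2-fold was tested on simulated data with known folds, which is a check of the code and no statistical test of the results. Python 3.11.15, numpy 2.4.6, pandas 2.3.3 and matplotlib 3.10.9 were used. Alternatives were a fold of 1.5, no fold threshold, a minimum of 1 FPKM, pseudocounts of 0.1 and 1 FPKM and centring on the median of all listed genes.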

Additional observations from a re-analysis of the deposited data

Results flagged for a closer look

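NRG1 differed in opposite directions in the lines, with a log2 ratio of extravasated over parental cells of -1.62 in D17 and 1.72 in HMPOS. FGF5 did so as well, with -0.66 in D17 and 1.00 in HMPOS. Each rests on 1 merged value per group, and the difference between the lines was not tested. Which group is the extravasated one was read from the tables' group names, and this reading is not settled. With the names exchanged in both lines each sign would turn and the lines would still be opposite, but with the names exchanged in 1 line alone both genes would share a direction.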

How the results depend on the processing

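No paired analysis was possible because libraries are merged into 1 value per group, and for the same reason leaving out each replicate in turn was not run. For genes more than 2-fold higher and lower in extravasated cells, the counts were 9 and 2 in D17 and 4 and 1 in HMPOS, and for HMPOS against POS they were 3 and 12. Without a fold threshold they were 17 and 4, 12 and 4, and 9 and 24. At a fold of 1.5 the HMPOS counts were 8 and 3, and 7 genes were higher in HMPOS than in POS. With a pseudocount of 1 FPKM, 0 genes were lower in D17 and 1 was higher in HMPOS. After centring, 5 genes were higher in D17, 1 was higher and 4 lower in HMPOS, and 6 were higher in HMPOS than in POS. The other counts under these settings, and all counts under a minimum of 1 FPKM and a pseudocount of 0.1 FPKM, stayed within 1.5 times of the main count. Centring turned the log2 ratio of AXL to -0.0087 and of IGF2R to -0.058 in D17, of AXL to -0.15, IGFBP4 to -0.076, MET to -0.12 and PDGFRB to -0.14 in HMPOS, and of PDGFRB to 0.030 in HMPOS against POS. The median used for centring is itself taken over genes selected as different. Depth is unknown, and values below 1 FPKM, which 6 of the 21 members in D17, 2 of 16 in HMPOS and 5 of 33 in HMPOS against POS had in at least 1 group, are the least certain.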
